A study of Mus musculus with 6 samples.

Results

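The mitochondrial carriers of the Slc25 family were followed in RNA of cardiomyocyte-enriched cells from mouse hearts. A gene was counted as a member where the array platform gave it a symbol starting with Slc25a and at least 1 of its probes had a detection p-value under 0.05 on 2 or more of the 6 arrays. Of the 46 such genes on the platform, 37 met that rule. The 9 without a detected probe were Slc25a2, Slc25a21, Slc25a27, Slc25a31, Slc25a40, Slc25a41, Slc25a43, Slc25a48 and Slc25a54. Of the 37 members, 30 were detected on all 6 arrays and 7 on fewer (Slc25a4, Slc25a18, Slc25a22, Slc25a30, Slc25a46, Slc25a51 and Slc25a53).

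Illumina MouseWG-6 v2 arrays had been run on C57BL/6J mice of 3 groups, with 2 biological replicates in each. TAC_BIX mice had undergone transverse aortic constriction, a surgical narrowing of the aorta that loads the left ventricle with pressure, and had received BIX-01294, an inhibitor of the histone methyltransferases G9a and GLP, for 1 week from an osmotic pump under the skin. TAC_DMSO mice had the same surgery with the vehicle DMSO, and sham mice had the surgery without constriction. No vehicle is named for the sham mice, so constriction and vehicle cannot be told apart in a comparison with sham. The sources used here give neither the age and sex of the mice, nor how many mice stand behind an array, nor the length of the DMSO treatment. With 2 arrays a group, every p-value sets a difference against a spread estimated from these few samples only. That spread is pooled over the 3 groups and drawn towards the one typical of all genes.

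Most carriers of this family sit in the inner mitochondrial membrane, where each moves a small molecule or ion between the matrix and the cytosol, often in exchange for another. They are encoded in the nucleus, made on cytosolic ribosomes without a cleaved presequence in most cases, and brought to the inner membrane by the Tom complex, the small Tim chaperones and the Tim22 complex. In the heart they export ATP, import phosphate, carry reducing equivalents through the malate-aspartate shuttle, and admit acylcarnitines for fatty acid oxidation and cofactors such as coenzyme A.

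Values are log2 signals after background correction and quantile normalization between arrays. Between 36.7% and 40.9% of all probes were detected per array. Arrays of the same group correlated at 0.989 to 0.992 over all probes, detected or not, and arrays of different groups at 0.974 to 0.989. Of 8 cardiomyocyte markers 7 were measured, all detected on all 6 arrays. Their summed signal was 126600 and 127600 in TAC_BIX, 114690 and 122460 in TAC_DMSO, and 122390 and 135520 in sham. The sum is weighted to Myh6, Actc1, Myl2 and Mb, at 14.30 to 14.78 log2 units, where the highest value of any probe was 14.98. Whether these probes were near saturation was not tested, so similar sums do not show similar cardiomyocyte content. Markers of other cells were also detected and differed between arrays. All 3 atrial markers (Myl4, Myl7 and Sln) were called lower in TAC_BIX than in sham, and their summed signal was 568 and 526 in TAC_BIX, 3212 and 6185 in TAC_DMSO, and 5215 and 7277 in sham. The 8 fibroblast markers summed to 12783 and 19780 in TAC_BIX, 13738 and 8864 in TAC_DMSO, and 9805 and 9337 in sham. Of 6 adipocyte markers, 5 were not kept, Adipoq and Plin1 among them. The 1 kept was Cidea, detected on all 6 arrays and called in no comparison. It measured 9.76 and 9.87 in TAC_BIX, 10.46 and 10.20 in TAC_DMSO, and 9.74 and 9.84 in sham. In RNA of mixed cells, fewer cells of a type and less RNA per cell cannot be told apart.

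Differences of the members lay on both sides of 0 in each comparison, and few passed the test. A member was called where its difference had an adjusted p under 0.05, with limma fitted to all 10538 genes and Benjamini-Hochberg adjustment over all of them. Between TAC_BIX and sham, Slc25a42, Slc25a34 and Slc25a28 were called, all lower. They make up 8.11% of the members, where 6.65% of all genes were called in either direction and 3.91% were called lower. Between TAC_DMSO and sham, Slc25a46 alone was called, also lower; it is 2.70% of the members, against 0.408% of all genes in either direction and 0.199% lower. Between TAC_BIX and TAC_DMSO no member was called and 0% of all genes were. At an unadjusted p under 0.05 that comparison held 8 members, which is 21.6% beside 19.8% of all genes. By direction, 7 were higher in TAC_BIX (18.9%, beside 9.14% of all genes) and 1 was lower (2.70%, beside 10.7%).

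The medians over the members were small. The median log2 difference was 0.17 for TAC_BIX minus TAC_DMSO over the 37 members, beside 0.03 over all genes, and 0.11 once members with only a bound were set at it. For TAC_BIX minus sham the medians were 0.01 over the members and -0.00 over all genes, and for TAC_DMSO minus sham they were -0.12 and -0.01. Over the 30 members detected on all 6 arrays the medians in these comparisons were 0.09, 0.00 and -0.15. At an unadjusted p under 0.05 there were 10 members in TAC_BIX against sham, or 27% beside 26.4% of all genes, with 4 higher (10.8%, beside 13.1%) and 6 lower (16.2%, beside 13.3%). In TAC_DMSO against sham there were 9, or 24.3% beside 22.4% of all genes. All 9 were lower, where 11.6% of all genes were lower and 10.8% higher. The shares in either direction were near those of all genes, while the split by direction was uneven where TAC_DMSO was one of the groups. TAC_DMSO is shared by both of those comparisons, so they are not independent of each other. The arrays of the compared groups did not overlap for 23 members between TAC_BIX and TAC_DMSO (62.2%, beside 51.7% of all genes), for 17 between TAC_BIX and sham (45.9%, beside 58.4%) and for 16 between TAC_DMSO and sham (43.2%, beside 53.8%).

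**Figure D1:**
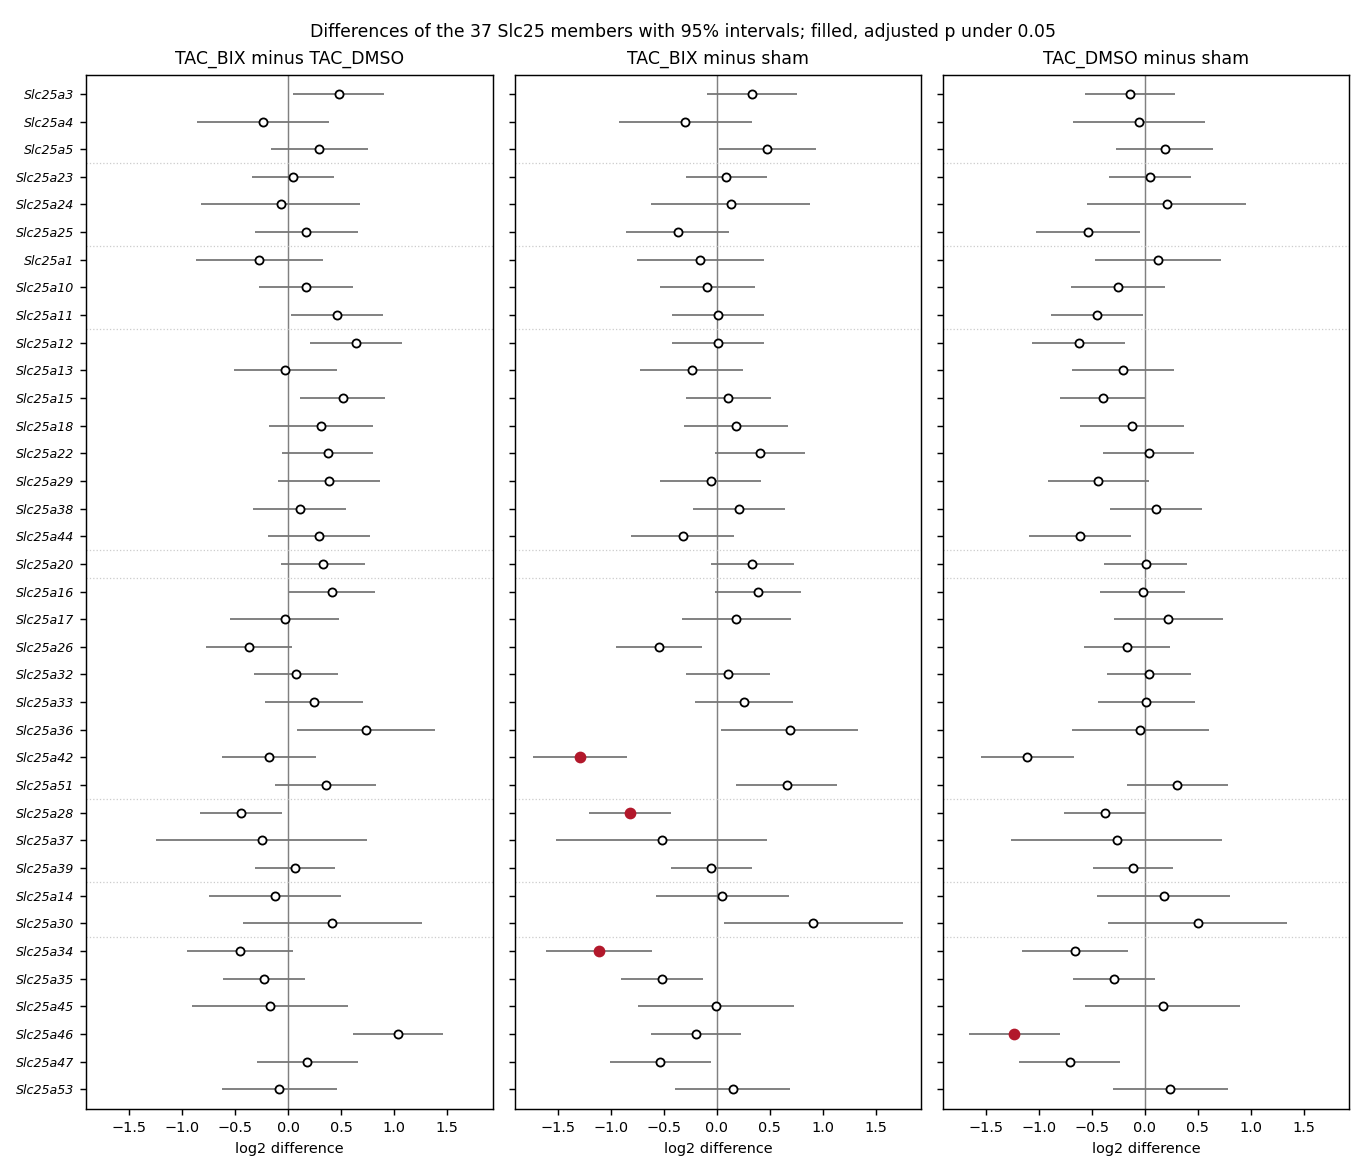
Log2 differences of the 37 members, grouped by role, with 95% intervals from limma; filled points have an adjusted p under 0.05. The 4 filled points are Slc25a42, Slc25a28 and Slc25a34 in TAC_BIX minus sham and Slc25a46 in TAC_DMSO minus sham, all below 0.

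Slc25a42 carries coenzyme A into the matrix in exchange for adenine nucleotides. Its log2 signal was 7.86 and 7.47 in TAC_BIX, 7.81 and 7.88 in TAC_DMSO, and 8.91 and 8.99 in sham. All 4 arrays of constricted hearts lay about 1 log2 unit or more below both sham arrays, and the arrays of the constricted groups overlapped each other. The difference was -1.29 ± 0.19 (SE) for TAC_BIX minus sham, a 2.44-fold lower signal with an adjusted p = 0.0211 in limma. For TAC_DMSO minus sham it was -1.11 ± 0.19, with an adjusted p = 0.0544, so that TAC_DMSO missed the threshold; it passed under 5 of 16 other settings. TAC_BIX minus TAC_DMSO was -0.18, with a 95% interval of -0.62 to 0.26. With 1 array left out, the remaining array of its group adds nothing to the estimated spread and is assumed to vary like the other groups, so such a fit loses an estimate of spread along with the array. The call against sham was lost without TAC_BIX replicate 2 (adjusted p = 0.2005), without sham replicate 1 (adjusted p = 0.0869) and without sham replicate 2 (adjusted p = 0.0941). The other 3 probes of the gene on the array were detected on none of the 6 arrays.

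Slc25a34 is a carrier whose substrate is not settled. It measured 8.74 and 8.32 in TAC_BIX, 8.92 and 9.05 in TAC_DMSO, and 9.47 and 9.81 in sham. The 3 groups did not overlap, with TAC_BIX lowest and sham highest. The difference was -1.11 ± 0.22 (SE) for TAC_BIX minus sham, 2.16-fold lower with an adjusted p = 0.0315 in limma, and -0.66 for TAC_DMSO minus sham, which was not called (adjusted p = 0.141). A second probe, detected on all 6 arrays, did not show the difference from sham: it gave -0.18 for TAC_BIX minus sham and 0.23 for TAC_DMSO minus sham. Averaged over its kept probes, the gene differed by -0.64 between TAC_BIX and sham and was not called (adjusted p = 0.0803). Without any 1 of the TAC_BIX or sham arrays the call was also lost, with adjusted p-values of 0.0576 without TAC_BIX replicate 1, 0.240 without TAC_BIX replicate 2, 0.0911 without sham replicate 1 and 0.129 without sham replicate 2.

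Slc25a28, mitoferrin 2, brings iron into mitochondria of many cell types. Its signal was 9.20 and 9.12 in TAC_BIX, 9.59 and 9.62 in TAC_DMSO, and 10.06 and 9.91 in sham. The groups did not overlap, with TAC_BIX lowest, TAC_DMSO between and sham highest. TAC_BIX minus sham was -0.82 ± 0.17 (SE), 1.77-fold lower, with an adjusted p = 0.0331 in limma. TAC_DMSO minus sham was -0.38 (adjusted p = 0.233) and TAC_BIX minus TAC_DMSO -0.45 (adjusted p = 0.199), neither of which was called. The call was lost without TAC_BIX replicate 1 (adjusted p = 0.0894), TAC_BIX replicate 2 (0.233), sham replicate 1 (0.146) and sham replicate 2 (0.111). The atrial markers fell in the same comparison with sham as these 3 carriers. So did Tnni3, cardiac troponin I, which was 1 of 7 cardiomyocyte markers called (-0.80, adjusted p = 0.0391). The fibroblast markers had a median difference of 1.06 in it, with 8 of 8 above 0, and the endothelial markers 0.55, with 5 of 7. The smooth muscle and pericyte markers had a median of 0.20, with 5 of 5 above 0. In each of these lists 1 marker was called, in each case higher: Lum by 1.93, Pecam1 by 1.24 and Rgs5 by 3.29. The part of these markers' cells in the 3 carrier differences was not tested. With median scaling in place of quantile normalization none of the 3 carriers was called: TAC_BIX minus sham was -0.57 for Slc25a42, -0.43 for Slc25a34 and -0.16 for Slc25a28, where the median of all genes was 0.53.

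The promoters of these 3 members are shown because they are the ones whose signals were called lower together in TAC_BIX. Each is the RefSeq window from 250 bases before to 50 bases after the gene's start in GRCm38.p6, written 5′ to 3′ along the gene. The windows are Slc25a42 at chr8:70212232-70212531, Slc25a34 at chr4:141623785-141624084 and Slc25a28 at chr19:43674832-43675131, all on the minus strand. Capitals mark matches on either strand to CCAAT, the letters of the CCAAT box, and to AAGGTCA, here read as TGACCTT on the printed strand. AAGGTCA is only part of the extended half-site of the estrogen-related receptors, so a match is not that whole site.
Slc25a42: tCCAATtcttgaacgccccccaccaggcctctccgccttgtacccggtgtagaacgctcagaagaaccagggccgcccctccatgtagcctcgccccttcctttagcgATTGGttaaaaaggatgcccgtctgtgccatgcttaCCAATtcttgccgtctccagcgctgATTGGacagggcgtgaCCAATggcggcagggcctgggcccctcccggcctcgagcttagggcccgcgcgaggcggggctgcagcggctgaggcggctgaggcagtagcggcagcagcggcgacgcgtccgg
Slc25a34: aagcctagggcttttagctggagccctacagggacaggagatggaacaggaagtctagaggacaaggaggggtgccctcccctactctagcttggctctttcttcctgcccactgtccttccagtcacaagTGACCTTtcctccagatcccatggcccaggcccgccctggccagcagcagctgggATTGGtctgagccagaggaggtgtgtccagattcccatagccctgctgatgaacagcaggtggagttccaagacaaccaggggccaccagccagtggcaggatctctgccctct
Slc25a28: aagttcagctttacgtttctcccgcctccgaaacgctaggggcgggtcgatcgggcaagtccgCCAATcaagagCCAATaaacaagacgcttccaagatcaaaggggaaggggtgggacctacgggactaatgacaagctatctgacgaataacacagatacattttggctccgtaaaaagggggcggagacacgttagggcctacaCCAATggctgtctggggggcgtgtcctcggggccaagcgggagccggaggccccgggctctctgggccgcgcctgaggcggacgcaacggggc

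CCAAT was added to the search after the windows had been read. It occurs 5 times in the Slc25a42 window, once in that of Slc25a34 and 3 times in that of Slc25a28. Of all 32851 windows 37.4% hold it, and 21 of the 39 windows of the 30 members matched by symbol do (53.8%). AAGGTCA is in 4.72% of all windows and in 1 of the 39, that of Slc25a34. The E-box CACGTG is in 7.15% of all windows and 7 of the 39, the ETS core CCGGAAG in 8.86% and 6 of the 39, and the palindromic NRF1 core in 0.971% and none of the 39. None of these last 3 motifs is in a printed window, which says only that the letters are not there.

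Slc25a46 lies in the outer mitochondrial membrane, where it takes part in mitochondrial fusion and fission. Its signal was 6.07 and 5.94 in TAC_BIX, 5.12 and 4.81 in TAC_DMSO, and 6.24 and 6.15 in sham. Only the TAC_DMSO arrays were low, and the probe was detected on 1 of those 2 arrays. TAC_DMSO minus sham was -1.23 ± 0.18 (SE), 2.35-fold lower, with an adjusted p = 0.0499 in limma. TAC_BIX minus TAC_DMSO was 1.04 ± 0.18, the smallest p of any member in that comparison, with an adjusted p = 0.0652, and TAC_BIX minus sham was -0.19, with a 95% interval of -0.62 to 0.23. The call against sham was lost in each of the 6 fits with 1 array left out, with adjusted p-values from 0.0604 without TAC_DMSO replicate 2 to 0.177 without sham replicate 2. Without either TAC_BIX array the difference itself was the same and the spread came from the TAC_DMSO and sham arrays alone (adjusted p = 0.116). The size also depended on the treatment of dim signals: it was -0.27 in the authors' processed values and -0.42 in quantile normalized signals without background correction, and neither was called.

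**Figure D2:**
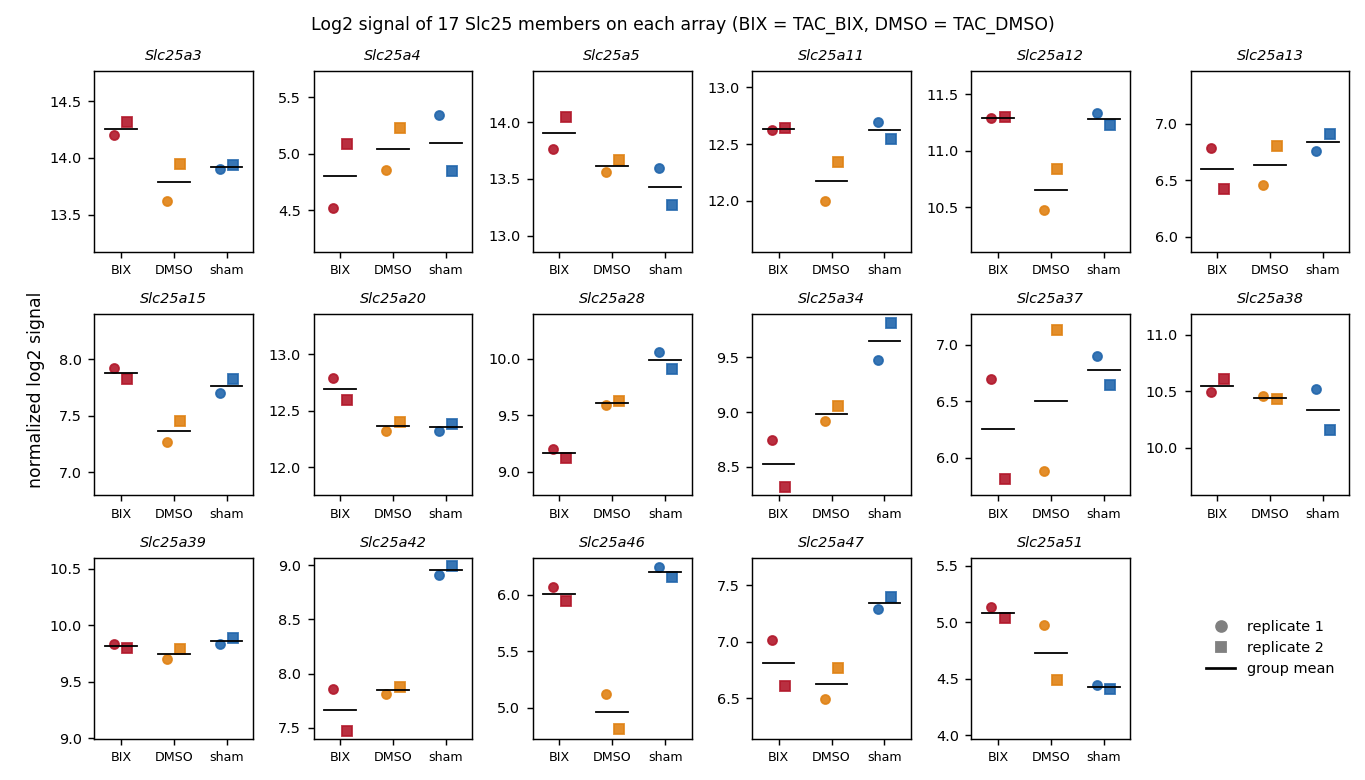
Normalized log2 signal of 17 members on each array, with replicates 1 and 2 as circles and squares and group means as lines; the vertical scale differs between panels. Slc25a42, Slc25a34 and Slc25a28 are lowest in TAC_BIX by group mean and highest in sham, and Slc25a46 is low in TAC_DMSO, at 5.12 and 4.81.

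Among the carriers of adenine nucleotides and phosphate, no member of the 3 measured was called. Slc25a3, the phosphate carrier, measured 14.20 and 14.32 in TAC_BIX, 13.62 and 13.95 in TAC_DMSO, and 13.91 and 13.94 in sham. Both TAC_BIX arrays lay above the other 4, with a difference of 0.47 from TAC_DMSO (adjusted p = 0.210 in limma). Another probe of Slc25a3, detected on all 6 arrays, gave 0.25 for TAC_BIX minus TAC_DMSO and 0.18 for TAC_BIX minus sham. Slc25a5, the adenine nucleotide translocase ANT2, measured 13.77 and 14.05 in TAC_BIX, 13.56 and 13.67 in TAC_DMSO, and 13.59 and 13.27 in sham, and TAC_BIX minus sham was 0.48 (adjusted p = 0.177). The highest log2 value of any probe was 14.98, and whether these bright probes were near saturation was not tested. Slc25a4 encodes ANT1, known as the main isoform of heart and muscle. Its 1 kept probe was near the detection limit, with 4.52 and 5.08 in TAC_BIX, 4.85 and 5.23 in TAC_DMSO, and 5.34 and 4.84 in sham, and was detected on 4 of the 6 arrays. Values at that limit say little about the level of ANT1 RNA in these cells.

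The calcium-regulated carriers of ATP-Mg and phosphate had 3 measured members, none called. Their differences ran from -0.07 to 0.17 for TAC_BIX minus TAC_DMSO. The lowest difference from sham was that of Slc25a25 in TAC_DMSO, at -0.54 (adjusted p = 0.189 in limma).

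The malate-aspartate shuttle moves reducing equivalents of NADH into the matrix through an oxoglutarate carrier, Slc25a11, and an aspartate-glutamate carrier, Slc25a12 (aralar) or Slc25a13 (citrin). Slc25a12 measured 11.29 and 11.30 in TAC_BIX, 10.48 and 10.84 in TAC_DMSO, and 11.34 and 11.23 in sham. TAC_BIX and sham lay together and both TAC_DMSO arrays were below them. TAC_BIX minus TAC_DMSO was 0.64 ± 0.19 (SE) and TAC_DMSO minus sham -0.63 ± 0.19, with adjusted p-values of 0.130 and 0.121 in limma, so neither was called. Slc25a11 had the same arrangement, at 12.62 and 12.64 in TAC_BIX, 11.999 and 12.34 in TAC_DMSO, and 12.70 and 12.55 in sham. Its differences were 0.46 for TAC_BIX minus TAC_DMSO (adjusted p = 0.229) and -0.45 for TAC_DMSO minus sham (adjusted p = 0.208). On these probes TAC_BIX minus sham was 0.01 for both carriers, with 95% intervals of -0.42 to 0.43 for Slc25a11 and -0.42 to 0.45 for Slc25a12. Other probes, all detected on all 6 arrays, differed: those of Slc25a11 gave 0.15 and -0.23 for TAC_DMSO minus sham and 0.58 and -0.04 for TAC_BIX minus sham, and that of Slc25a12 gave -0.52 and -0.34. Slc25a13 measured 6.78 and 6.42 in TAC_BIX, 6.46 and 6.81 in TAC_DMSO, and 6.76 and 6.91 in sham, and the constricted groups overlapped. Of the 3 dicarboxylate, oxoglutarate and citrate carriers measured, Slc25a11 had the smallest p in the comparisons with TAC_DMSO; Slc25a1 and Slc25a10 differed by -0.27 to 0.17 across the comparisons.

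Of 8 measured carriers of aspartate, glutamate and other amino acids none was called. Slc25a15, the ornithine carrier of the urea cycle, measured 7.92 and 7.82 in TAC_BIX, 7.27 and 7.45 in TAC_DMSO, and 7.70 and 7.83 in sham. On this probe the TAC_DMSO arrays were again the low ones, with a TAC_BIX minus TAC_DMSO difference of 0.51 ± 0.17 (SE) and an adjusted p = 0.168 in limma. Another probe, detected on all 6 arrays, gave 0.26 for TAC_BIX minus TAC_DMSO and -0.12 for TAC_DMSO minus sham. On that probe TAC_DMSO replicate 2 (5.23) lay above both sham arrays (5.21 and 5.20). Slc25a44, described in mouse brown fat as a carrier of branched-chain amino acids, differed by -0.61 between TAC_DMSO and sham (adjusted p = 0.151). The glutamate carriers Slc25a18 and Slc25a22 were detected on 3 and 2 arrays, and Slc25a22 passed the rule through its TAC_BIX arrays alone. Slc25a18 was detected on both TAC_BIX arrays, neither TAC_DMSO array and 1 sham array, so it also met the rule only with TAC_BIX. By group means Slc25a22 was at least 1.12-fold higher in TAC_BIX than in TAC_DMSO and at least 1.05-fold higher than in sham. Neither difference was called, with adjusted p-values of 0.311 and 0.206 in limma. By group means Slc25a18 was at least 1.06-fold higher in TAC_BIX than in TAC_DMSO, which was not called either (adjusted p = 0.454). As both genes met the rule only with TAC_BIX, these bounds are no separate support for a difference. Such a bound sets the bright group's mean against the higher of the dim probe's own signal and the lowest detected signal of each array in the dim group.

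Slc25a20, the carnitine-acylcarnitine translocase through which long-chain fatty acids reach beta-oxidation, measured 12.78 and 12.60 in TAC_BIX, 12.32 and 12.40 in TAC_DMSO, and 12.32 and 12.38 in sham. Both TAC_BIX arrays lay above the other 4. TAC_BIX minus TAC_DMSO was 0.33 and TAC_BIX minus sham 0.34, with adjusted p-values of 0.325 and 0.251 in limma, so neither was called. TAC_DMSO minus sham was 0.01 with a 95% interval of -0.39 to 0.40. Another probe, detected on all 6 arrays, gave 0.38 for TAC_BIX minus TAC_DMSO, 0.61 for TAC_BIX minus sham and 0.23 for TAC_DMSO minus sham.

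Of the 8 measured carriers of nucleotides and cofactors, Slc25a42 alone was called. Slc25a26, which imports S-adenosylmethionine, the methyl donor, differed by -0.54 between TAC_BIX and sham (adjusted p = 0.105 in limma). Slc25a36, a pyrimidine nucleotide carrier, differed by 0.73 between TAC_BIX and TAC_DMSO (adjusted p = 0.205) and by 0.69 between TAC_BIX and sham (adjusted p = 0.169). Its other 2 probes, both detected on all 6 arrays, gave 0.37 and 0.59 for TAC_BIX minus TAC_DMSO, and 0.54 and -0.20 for TAC_BIX minus sham. Slc25a51, which imports NAD, measured 5.13 and 5.03 in TAC_BIX, 4.97 and 4.49 in TAC_DMSO, and 4.44 and 4.41 in sham. Its probe was detected on both TAC_BIX arrays, 1 TAC_DMSO array and neither sham array, so it met the rule only with TAC_BIX. By group means its signal was at least 1.08-fold higher in TAC_BIX than in sham, which was not called and is no separate support for a difference.

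The other carriers of iron and haem metabolism were read beside erythroid genes, since red cell precursors use them for haem synthesis. Slc25a37, mitoferrin 1, measured 6.69 and 5.81 in TAC_BIX, 5.88 and 7.13 in TAC_DMSO, and 6.90 and 6.64 in sham. The 3 groups overlapped. Alas2, the erythroid enzyme of the first step of haem synthesis, measured 8.35 and 6.27 in TAC_BIX, 7.33 and 10.25 in TAC_DMSO, and 7.23 and 5.01 in sham. Within each group the array with more Alas2 also had more Slc25a37 and more Hba-a1, an alpha globin gene. Of 8 erythroid markers 4 were measured, 2 of them detected on all 6 arrays, and their summed signal was 7842 and 1802 in TAC_BIX, 12632 and 29189 in TAC_DMSO, and 6979 and 829 in sham. Slc25a28 was also higher on those arrays, with 9.20 beside 9.12 in TAC_BIX, 9.62 beside 9.59 in TAC_DMSO and 10.06 beside 9.91 in sham, gaps smaller than its differences between the groups. The part of red cell RNA in these values was not tested. Slc25a38, which brings in glycine for haem synthesis, measured 10.49 and 10.61 in TAC_BIX, 10.46 and 10.43 in TAC_DMSO, and 10.52 and 10.15 in sham. This probe gave 0.21 for TAC_BIX minus sham and 0.10 for TAC_DMSO minus sham. Its other kept probes, detected on all 6 arrays, gave 0.03 and -0.56 for TAC_BIX minus sham, and -0.33 and -0.71 for TAC_DMSO minus sham. Slc25a39, needed for glutathione import, measured 9.83 and 9.80 in TAC_BIX, 9.70 and 9.79 in TAC_DMSO, and 9.83 and 9.89 in sham. Neither was called, and the 95% intervals of Slc25a39 for TAC_BIX minus sham ran from -0.43 to 0.33.

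**Figure D3:**
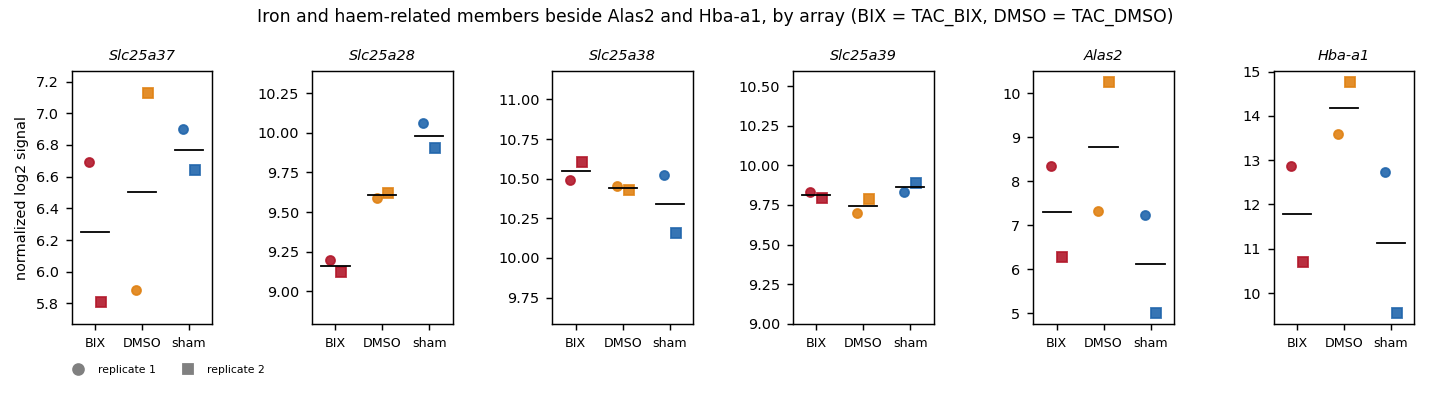
Normalized log2 signal of Slc25a37, Slc25a28, Slc25a38 and Slc25a39 on each array beside the erythroid genes Alas2 and Hba-a1, with group means as lines; the vertical scale differs between panels. Slc25a37, Alas2 and Hba-a1 are high on TAC_DMSO replicate 2 (7.13, 10.25 and 14.76), and Slc25a28 is lowest in TAC_BIX and highest in sham.

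The uncoupling-protein-like carriers Slc25a14 and Slc25a30 were not called. Slc25a30 differed by 0.91 between TAC_BIX and sham (adjusted p = 0.164 in limma) and was detected on 5 of the 6 arrays. Of the 6 measured members in the outer membrane or with less known roles, Slc25a34 and Slc25a46 were called as given above. Slc25a47, best known from liver, measured 7.01 and 6.61 in TAC_BIX, 6.49 and 6.77 in TAC_DMSO, and 7.29 and 7.39 in sham. All 4 constricted arrays were below both sham arrays, with differences of -0.53 for TAC_BIX minus sham (adjusted p = 0.154) and -0.71 for TAC_DMSO minus sham (adjusted p = 0.115). Slc25a35 differed by -0.52 between TAC_BIX and sham (adjusted p = 0.104), and Slc25a45 and Slc25a53 by -0.17 to 0.24 across the comparisons.

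The 2 arrangements met above can be counted over the family by the order of group means. For 8 members (21.6%, beside 17.8% of all genes) TAC_BIX was lowest and sham highest, as in Slc25a42, Slc25a34 and Slc25a28. For 14 members (37.8%, beside 33.7%) TAC_DMSO was lowest, as in Slc25a12, Slc25a11, Slc25a15 and Slc25a46. The shares were close to those of all genes, and many of these orders rest on differences within the spread between replicates.

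Most members, 25 of 37, rest on 1 kept probe. In the other 12 the kept probe with the highest mean stands for the gene. Between TAC_BIX and TAC_DMSO the probes of 11 of these 12 genes had the same sign, the exception being Slc25a37. Against sham they had the same sign in 5 of the 12 for TAC_BIX and in 6 of the 12 for TAC_DMSO. The widest gap was in Slc25a13, whose second probe, detected on 4 of the 6 arrays, differed by 1.11 between TAC_DMSO and sham where the probe that stands for the gene differed by -0.21.

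**Figure D4:**
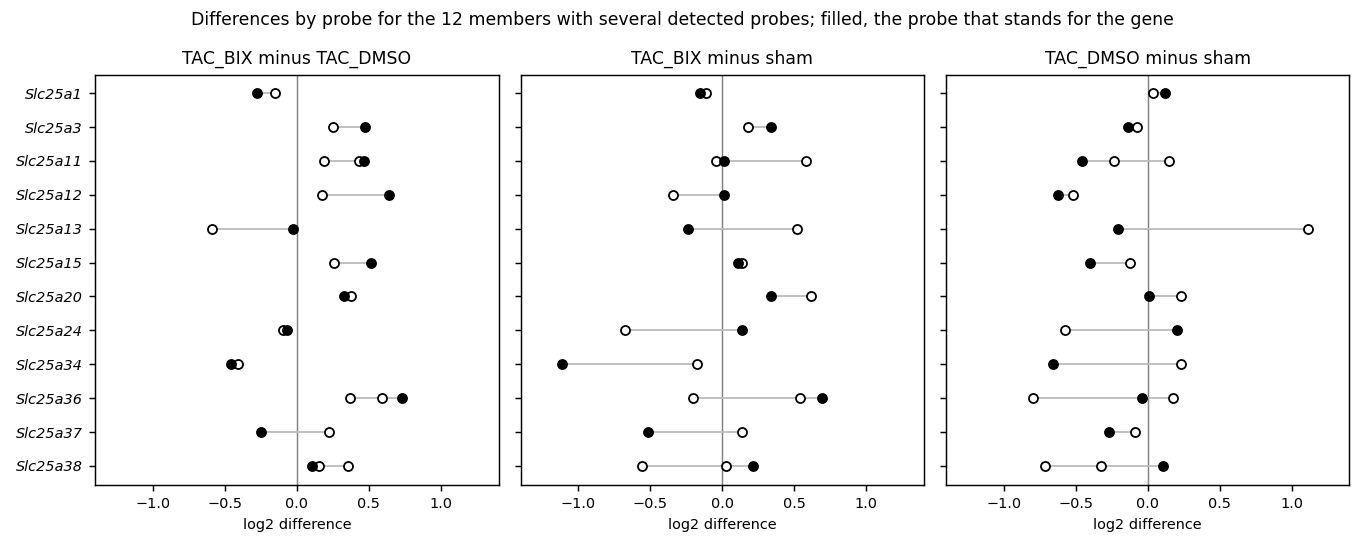
Log2 differences of each detected probe of the 12 members with several, with the probe that stands for the gene filled and lines joining the probes of a gene. Probes of a gene lie on the same side of 0 in 11 of 12 genes between TAC_BIX and TAC_DMSO, and in 5 and 6 of 12 in the comparisons of TAC_BIX and TAC_DMSO with sham.

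The proteins that bring these carriers into the membrane were measured as a list of their own, chosen with earlier results of these data known. Of 16 genes 12 were measured. Beside 3.91% of all genes called lower in TAC_BIX than in sham and 6.65% called in either direction, 4 of the 12 were called lower (33.3%). They were Timm10 and Timm10b, which encode small Tim chaperones of the intermembrane space, and Tomm6 and Tomm7, small subunits of the outer membrane Tom complex; Tomm7 is named after its values were seen. Timm10 measured 10.22 and 9.95 in TAC_BIX, 11.01 and 11.04 in TAC_DMSO, and 11.33 and 11.08 in sham, and its TAC_BIX minus sham difference was -1.12 (adjusted p = 0.0233 in limma). Tomm6 measured 9.75 and 9.69 in TAC_BIX, 10.68 and 10.64 in TAC_DMSO, and 10.68 and 10.62 in sham, and its difference was -0.93 (adjusted p = 0.0252). In both genes only the TAC_BIX arrays were low. The atrial markers were called lower in the same comparison, and their part was not tested. Timm10b and Tomm7 differed by -0.99 (adjusted p = 0.0309) and -1.07 (adjusted p = 0.0377).

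As reported, none of the 12 was called between TAC_BIX and TAC_DMSO or between TAC_DMSO and sham. Between TAC_BIX and TAC_DMSO, Timm10b and Tomm6 differed by -1.19 and -0.94, both with an adjusted p = 0.0652 in limma. Some other settings called 5 lower there: quantile normalized log2 signals without background correction, the authors' values and an offset of 50. The robust prior with an intensity trend called 6, and genes detected on all 6 arrays gave 4 of 11. The number was 0 with median scaling, no filter, the mean over kept probes, only the 2 groups fitted or the replicate block. The list's medians were -0.34 for TAC_BIX minus TAC_DMSO, -0.26 for TAC_BIX minus sham and -0.06 for TAC_DMSO minus sham, beside 0.03, -0.00 and -0.01 over all genes. With any 1 of the TAC_BIX or sham arrays left out of the fit of all groups, 0 of the 12 were called between TAC_BIX and sham. With median scaling in place of quantile normalization the list's median for TAC_BIX minus sham was 0.29, which is 0.25 below that of all genes, the 4 genes stayed below 0 and were not called, and 2 other genes of the list were called higher. These checks were chosen after the values were seen.

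Other lists around the family showed no called gene in any of the 3 comparisons. Of 21 other transporters of the mitochondrial membranes 15 were measured, with medians of 0.14 for TAC_BIX minus TAC_DMSO, 0.04 for TAC_BIX minus sham and -0.02 for TAC_DMSO minus sham. All 12 regulators of mitochondrial biogenesis were measured, with medians of 0.27, 0.04 and -0.20 in the same comparisons. Ppargc1a, the coactivator PGC-1alpha, measured 10.84 and 10.99 in TAC_BIX, 10.03 and 10.47 in TAC_DMSO, and 10.41 and 9.94 in sham. Both TAC_BIX arrays were above the other 4, and TAC_BIX minus sham was 0.74 without being called (the adjusted p was 0.1 in limma). Of the carrier genes under other symbols, Ucp3, Mtch1 and Mtch2 were measured. Ucp3, an uncoupling protein of muscle and heart, measured 6.45 and 5.65 in TAC_BIX, 6.91 and 7.001 in TAC_DMSO, and 5.69 and 6.47 in sham. Both TAC_DMSO arrays were above the rest, and TAC_BIX minus TAC_DMSO was -0.91 (adjusted p = 0.1885).

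**Figure D5:**
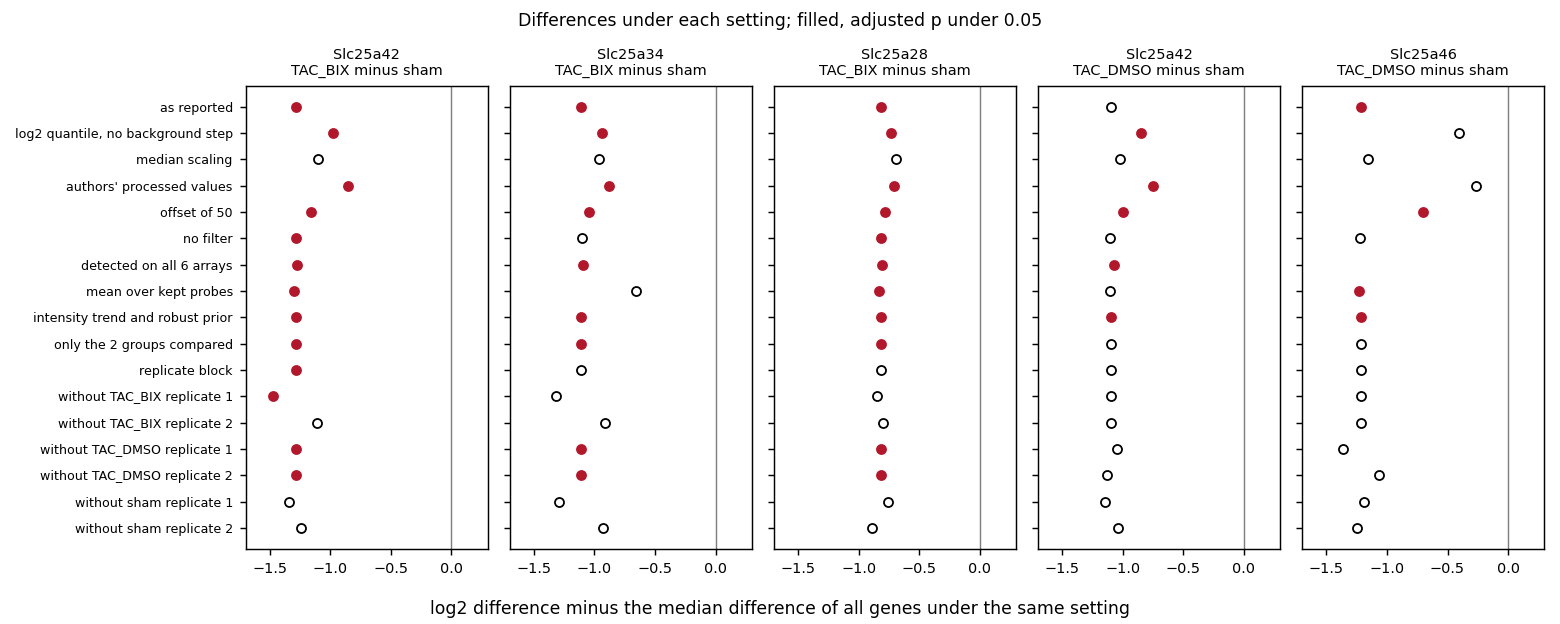
Log2 differences of the 4 called members, and of Slc25a42 in TAC_DMSO minus sham, as reported and under each other setting, each less the median difference of all genes under that setting; filled points have an adjusted p under 0.05. Fits without an array of the group not compared repeat the fit of only the compared groups, so the points and counts are not all separate checks. Every point is below 0, and Slc25a42 in TAC_BIX minus sham was called under 12 of 16 other settings, Slc25a28 under 10, Slc25a34 under 8 and Slc25a46 in TAC_DMSO minus sham under 3 of 15.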

How the data were processed

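The members and gene lists were chosen with earlier results of these data known. The authors deposited, per the file headers, an average bead signal intensity per probe and array, neither background corrected nor normalized, and beside it a detection p-value, each taken as that of the signal column before it. The authors also deposited processed log2 values, which share 1 distribution on all arrays; that table served as an alternative. GenomeStudio 2011.1, lumi and limma are named in the submitters' processing notes, with no role given.

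Intensities were processed in R 4.3.3 with the neqc function of limma 3.58.1 (normexp background correction from the detection p-values, an offset of 16, quantile normalization, log2). Of 45281 probes, 34885 had 1 gene in the platform's annotation, 18 several and 10378 none; Entrez identifiers matched 34807 to the RefSeq table of GRCm38.p6, changing 0 symbols. A probe was kept if detected (p under 0.05) on 2 or more arrays, which left 16446 probes with 1 gene. For each of the 10538 genes the brightest kept probe by mean was used. Groups came from the sample titles. limma fitted all 3 groups together with eBayes (3 residual degrees of freedom), with Benjamini-Hochberg adjustment over all genes. Fits with 1 array left out kept all 3 groups, with 5 arrays and 2 residual degrees of freedom; the lone array of a group is assumed to vary like the other groups. Leaving out an array of the group that is not compared therefore gives the same result as fitting only the 2 compared groups. Values on every array are given for called members, the 4 smallest p-values of each comparison and 12 preset carriers. Summed marker signals are sums of normalized signals on the linear scale. Precision is limited by the number of arrays. Replicate numbers came from the titles, which state no pairing. Deviations of same-numbered arrays correlated at -0.16 (TAC_BIX and TAC_DMSO), 0.09 (TAC_BIX and sham) and -0.24 (TAC_DMSO and sham). With 2 arrays a group these values cannot decide whether the numbers pair samples, and the arrays were fitted as unpaired.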

Additional observations from a re-analysis of the deposited data

How the results depend on the processing

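Over 16 alternatives, 6 of which leave out 1 array, no called difference changed sign. Not all of them are separate fits for a given comparison, as described above. The limits are the 2 arrays a group, the calls lost when 1 array, and with it the spread of its group, is left out, and dim signals, whose size depends on the background step. Members called between TAC_BIX and TAC_DMSO numbered 0 as reported and 0 to 0 with 1 array left out, but 1 in quantile normalized log2 signals without background correction (Slc25a12), 2 in the authors' values (Slc25a12 and Slc25a28), 1 with an offset of 50 (Slc25a46) and 2 under the robust prior with an intensity trend (Slc25a12 and Slc25a46). Between TAC_BIX and sham they numbered 3 as reported, and these calls were lost with some arrays left out, as given above. With median scaling 11 were called, a different set. The 3 as reported stayed below 0 there but were not among the 11. Median scaling moved the median of all genes by 0.53 and that of the members to 0.51. Relative to all genes Slc25a42 was then at -1.10, Slc25a34 at -0.96 and Slc25a28 at -0.69. Between TAC_DMSO and sham they numbered 1 as reported, 2 both with an offset of 50 and with the intensity trend, 0 with median scaling, with no filter and with only the 2 groups fitted, and 0 to 0 with 1 array left out. The members' median for TAC_BIX minus TAC_DMSO, 0.168 as reported, was 0.09 in quantile normalized log2 signals, 0.3 with median scaling (all genes 0.235), 0.06 in the authors' values, 0.062 with no filter, 0.088 for members on all 6 arrays and 0.048 to 0.168 with 1 array left out. For TAC_BIX minus sham it was -0.02 to 0.052 with 1 array left out. For TAC_DMSO minus sham, -0.116 as reported, it was -0.029 in quantile normalized log2 signals, 0.197 with median scaling (all genes 0.314), -0.018 in the authors' values, -0.059 with an offset of 50 and -0.194 to -0.073 with 1 array left out. All genes called ranged from 0 to 709 between TAC_BIX and TAC_DMSO, 0 to 3771 between TAC_BIX and sham and 0 to 956 between TAC_DMSO and sham, beside 0, 701 and 43 as reported. The cause of these shifts was not tested.

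Whether the replicate numbers pair the samples could not be decided from these arrays. With the replicate block, 0 members were called between TAC_BIX and TAC_DMSO, 1 between TAC_BIX and sham (Slc25a42) and 0 between TAC_DMSO and sham, with medians of 0.168, 0.011 and -0.116.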
